A study of Homo sapiens with 5 samples.

Results

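The receptors for the amino acid transmitters glutamate, GABA and glycine were examined at the level of their mRNAs in the human small cell lung cancer (SCLC) line NCI-H209. Members were taken by gene symbol from the name table deposited with the counts (all GRIA, GRIK, GRID, GRIN, GRM, GABR, GABBR, GLRA and GLRB subunit genes listed there), a table that holds 32793 entries. The rule gave 43 genes in 44 of the 64837 entries of the count tables, because GABBR1 has an entry on chromosome 6 and a second one on an alternative haplotype sequence. Another 9 genes of the same families, among them GRM3, are not in that name table and had at most 1 count in any library on the strand of the gene.

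Glutamate opens cation channels of the AMPA, kainate and NMDA classes, each built of several subunits, and also acts through slower metabotropic receptors coupled to G proteins. GABA and glycine open chloride channels (GABA-A and glycine receptors), and GABA acts in addition through GABA-B, a G protein-coupled receptor made of a pair of different subunits. These receptors carry synaptic transmission in the brain, and neuroendocrine tumours such as SCLC express many neuronal genes.

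The comparison asked how gene expression in SCLC cells changes under the influence of brain endothelium. It comprised 3 control libraries of NCI-H209 and 2 libraries of NCI-H209 that had been co-cultured for 24 h with human brain microvascular endothelial cells (HBMECs) in Transwell chambers, whose porous membrane keeps both cell types apart. No treatment other than the co-culture and no genetic change is given for either group. The labels do not say whether the replicates were separate cultures, so that the p-values measure the spread between these libraries, which may be technical.

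Reads counted on the strand of the genes ranged from 17317045 to 19157348 in the controls and were 18918787 and 15457071 in the co-cultured libraries. A gene without counts may therefore have had a level of up to 0.157 to 0.194 per 1e6 counts (3 counts over the library total, without TMM scaling), and this limit covers counting error only. CPM is the count scaled to a common library size (per 1e6 counts, TMM scaling). Unmapped reads made up 8.13 to 8.48% in the controls and 16.8% and 15.9% in the co-cultured libraries, and the part of this difference in the results was not tested. Neuroendocrine markers, which define this line, were abundant in every library (summed level of 14 genes 2539 to 2981 CPM in controls, 3504 and 3439 CPM after co-culture). The 18 endothelial markers summed to 10.0 to 21.4 CPM in controls and to 13.6 and 13.7 CPM after co-culture, with MMRN1 and PLVAP at 0 in all libraries. In these bulk libraries fewer cells of a type and less RNA per cell cannot be told apart.

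Of the 44 entries, 31 had enough counts to be tested. Co-cultured cells had higher mRNA levels of 8 of them (25.8%) and lower levels of 4 (12.9%) at an adjusted p below 0.05 (edgeR quasi-likelihood test), whereas 18.4% of all 20360 genes tested were called higher and 15.0% lower. GLRA3, GRIA2, GRIK3, GRIK5, GABRA2, GABRQ, GRM5 and GRM7 rose, and GRIN1, GRIK2, GABRG1 and GABBR2 fell. The median log2 fold change (co-cultured over control) of the tested receptor genes was 0.16, against -0.03 over all genes tested. By a criterion modelled on that of the study, whose methods name a fold change above 1 and p below 0.05 (read here as a log2 fold change above 1 or below -1 with p not adjusted), GRM7, GRM5, GLRA3 and GABRA2 were higher and GRIN2A, GRIK2 and GRIN1 lower, at background shares of 5.44% and 5.01%. The 19 entries not called had log2 fold changes on both sides of 0, with 12 positive and 7 negative, and 14 of them were within 0.5 of 0.

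**Figure D1:**
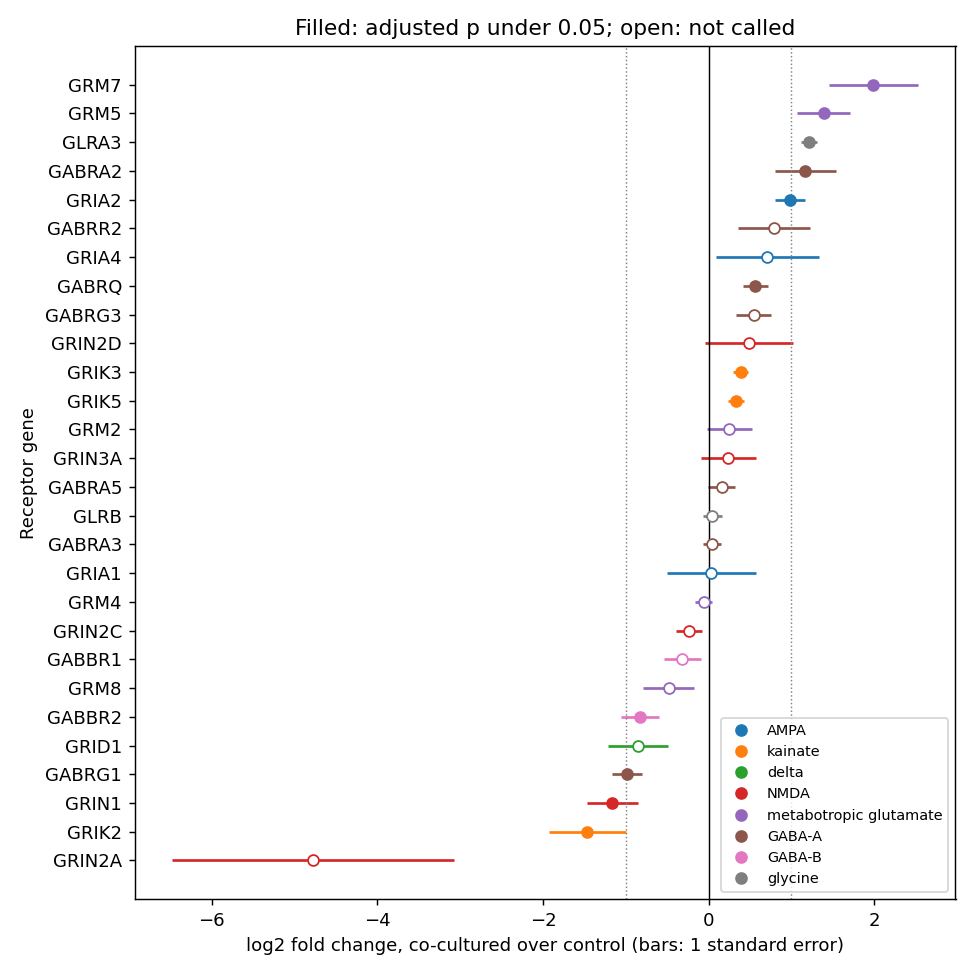
Log2 fold change of 28 tested receptor genes, co-cultured over control, with bars of 1 standard error and colours by receptor class; dotted lines mark 1 and -1. The 12 called genes (filled) run from -1.46 for GRIK2 to 1.99 for GRM7, and GRIN2A at -4.78 has the widest bar and was not called.

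Most receptor genes were present at low levels. The median control level of the tested members was 4.13 CPM, against 11.5 CPM over all genes tested, and 11 members lay above that overall median. GRIK3 stood highest among them, with rank 596 of 20360 genes by CPM. Compared per kb of exon, GRIK3 (25.6 ± 1.66 CPM per kb, SD, n = 3 controls), GRIK5 (6.96 ± 0.59), GRIN2C (5.95 ± 1.29), GLRB (5.42 ± 0.25) and GABRA3 (5.14 ± 0.33) were high. The intervals of GRIK5 and GRIN2C overlap, as do those of GRIN2C, GLRB and GABRA3, so that their order is not fixed by these libraries. Lengths are those of all annotated exons of a gene together, which makes genes with long alternative exons look lower than they are.

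**Figure D2:**
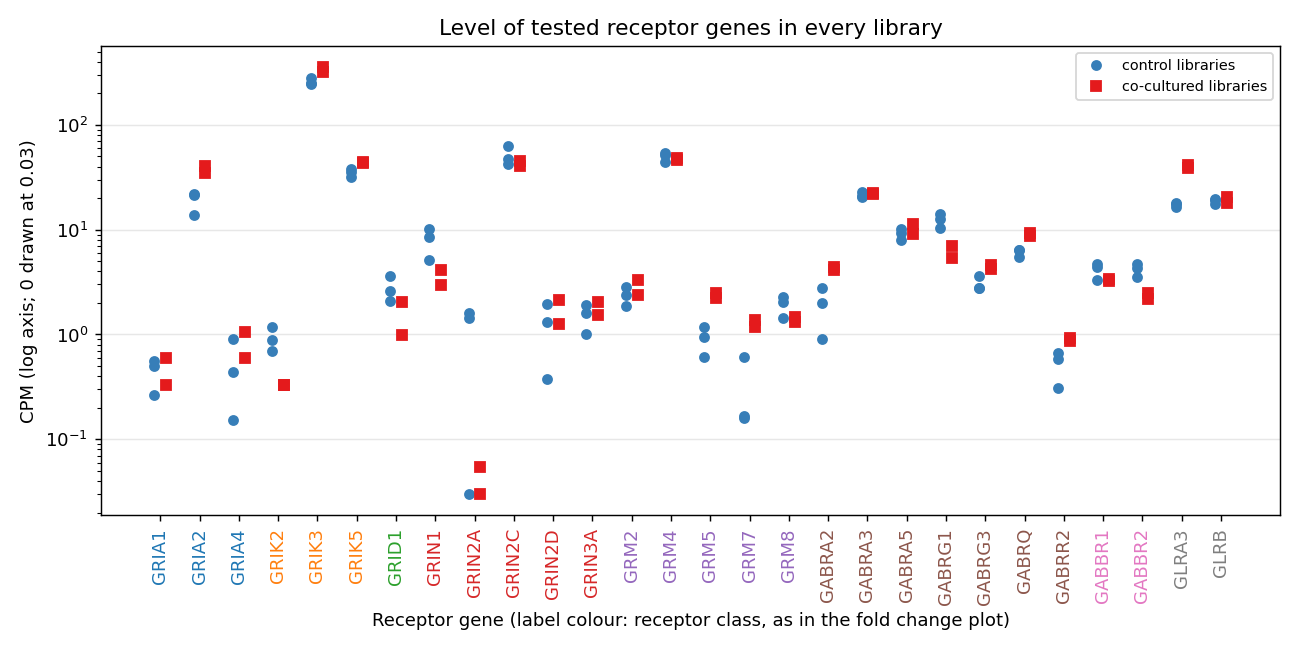
CPM of 28 tested receptor genes in each of 3 control (blue circles) and 2 co-cultured (red squares) libraries on a log axis, with values of 0 drawn at 0.03. GRIK3 lies highest in all libraries, GLRA3 and GRIA2 have both co-cultured libraries above all controls, and GRIN2A has a control library at 0.

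AMPA receptors carry fast excitatory transmission, and GRIA2 encodes the subunit that makes the channel nearly impermeable to calcium. GRIA2 counts were 260, 398 and 422 in controls 1, 2 and 3 and 740 and 530 in co-cultured libraries 1 and 2. Both co-cultured libraries lay above all controls, and control 1 was the lowest. The level rose from 19.1 ± 4.61 CPM (n = 3) to 37.7 ± 3.84 CPM (n = 2), a log2 fold change of 0.98 (SE 0.18, adjusted p = 0.00335), and the call was lost without co-cultured library 1 (adjusted p = 0.0569). GRIA2 supplied 93.3 ± 2.59% of the AMPA subunit mRNA per length in controls and 95.7 ± 1.91% after co-culture. The remaining AMPA subunits were near the detection limit, with at most 11 counts for GRIA1, 17 for GRIA4 and 5 for GRIA3, the last of them untested. Neither GRIA1 (log2 fold change 0.03) nor GRIA4 (0.71) was called, and their groups overlapped.

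The sequence upstream of GRIA2 is shown because it held both parts of RE1, the DNA element bound by the repressor REST, which silences neuronal genes outside the nervous system. The stretch is the RefSeq window of 250 bases before the start site at chr4:157220369-157220618 (GRCh38.p14, plus strand), for 1 of 3 start sites listed, chosen after the match was seen, and it lies between exons of the longer GENCODE gene model. Capitals mark matches to the right part of RE1 (GGACAGC, 228 to 222 and 156 to 150 bases before the start) and to the left part (TCAGCACC, 219 to 212 bases before it), searched on both strands.
GRIA2: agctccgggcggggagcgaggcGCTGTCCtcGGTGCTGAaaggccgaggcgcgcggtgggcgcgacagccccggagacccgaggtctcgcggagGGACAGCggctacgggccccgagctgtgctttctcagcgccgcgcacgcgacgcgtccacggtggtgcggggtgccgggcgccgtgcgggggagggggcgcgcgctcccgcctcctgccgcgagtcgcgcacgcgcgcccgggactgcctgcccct
The left part occurs in 1.32% and the right part in 4.76% of 35116 such windows over all genes, and both together in 0.140%. Among the 23 tested members with a window (37 windows), GRIA2 and GRM2 held both parts. GRM2, an inhibitory metabotropic receptor gene, had 45, 34 and 56 counts in controls and 44 and 50 after co-culture, with overlapping groups and a log2 fold change of 0.25 that was not called. A match of letters is a description of the window and not a bound site.

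Kainate receptors form a further class of glutamate-gated channels, in which GRIK3 and GRIK2 encode subunits that can form channels alone and GRIK5 one that needs such a partner. GRIK3 counts were 5222, 4443 and 4943 in controls and 5886 and 5372 after co-culture. On the CPM scale the groups did not overlap, with 258.8 ± 16.7 CPM in controls and 338.3 ± 23.4 CPM after co-culture (log2 fold change 0.39, SE 0.087, adjusted p = 0.00894). GRIK5 moved with it, from 31.7, 35.3 and 37.6 CPM in controls to 43.3 and 44.5 CPM (log2 fold change 0.33, SE 0.097, adjusted p = 0.0273). As both rose to a like degree, GRIK5 stayed at a ratio to GRIK3 of 0.23 to 0.30 per length in controls and of 0.27 and 0.25 after co-culture. The GRIK5 call was lost under 7 of 15 alternatives, including the fits without control 2 or either co-cultured library (adjusted p 0.0643 to 0.167). GRIK3 was called in 13 of 15 and was not called without co-cultured library 2 (adjusted p = 0.128).

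GRIK2 fell, on few reads. Its counts were 13, 16 and 23 in controls and 6 and 5 after co-culture, without overlap (log2 fold change -1.46, SE 0.47, adjusted p = 0.0380). Between 88.4 and 93.8% of the reads over GRIK2 lay on the opposite strand in every library, where the counts were 123, 188 and 175 in controls and 85 and 76 after co-culture. GRIK2 was called in 7 of the 13 alternatives that could test it, and not without control 2 or 3 or either co-cultured library (adjusted p 0.068 to 0.197). The part of the opposite-strand reads in its value was not tested. GRIK4 had 2, 3 and 2 counts in controls and 0 in both co-cultured libraries and was not tested. The delta receptor gene GRID1, whose protein organises synapses more than it conducts, was low as well, with 41 to 66 counts in controls and 37 and 15 after co-culture (log2 fold change -0.85, adjusted p = 0.100).

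NMDA receptors need the subunit encoded by GRIN1 together with a GRIN2 or GRIN3 subunit. GRIN1 counts were 96, 184 and 165 in controls and 54 and 63 after co-culture. Both co-cultured libraries lay below the lowest control, with 7.91 ± 2.58 CPM falling to 3.56 ± 0.86 CPM (log2 fold change -1.16, SE 0.30, adjusted p = 0.0174). Opposite-strand reads made up 17.5 to 40.7% of the reads over GRIN1, and the call was lost when these were subtracted and when control 2 or either co-cultured library was left out (adjusted p up to 0.173).

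GRIN2C supplied most NMDA subunit mRNA per length (77.3 ± 9.13% in controls, 81.7 ± 1.58% after co-culture). It had 63.5, 42.3 and 47.2 CPM in controls and 45.6 and 40.6 CPM after co-culture, with overlapping groups and a log2 fold change of -0.24 (adjusted p = 0.271). GRIN1 was the second subunit, at a ratio to GRIN2C per length of 0.10, 0.31 and 0.23 in controls and 0.082 and 0.13 after co-culture. Those ratios overlapped between the groups, because control 1 was low in GRIN1 and high in GRIN2C. GRIN2D (log2 fold change 0.49) and GRIN3A (0.24) were not called, GRIN2B had at most 5 counts, and GRIN3B at most 4.

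GRIN2A, a modulatory NMDA subunit, had the lowest log2 fold change of all members (-4.78, SE 1.70), yet was not called (adjusted p = 0.0572). Its counts were 30, 26 and 0 in controls and 1 and 0 in the co-cultured libraries. The reads thus came from controls 1 and 2, while control 3 was at 0 like co-cultured library 2, and the groups overlapped. On the opposite strand of GRIN2A the counts were 38 and 30 in the same controls and 0 in the other 3 libraries, a share of 54.4% over all libraries. Without control 3 the adjusted p was 0.00143, and without co-cultured library 1 or 2 it was 0.209 or 0.247.

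Several markers of pericytes and fibroblasts and of endothelium also had most of their reads in controls 1 and 2, and are named here after their values were seen. DCN, a matrix proteoglycan, had 27, 39 and 0 counts in controls and 3 and 1 after co-culture. LUM, another matrix proteoglycan, had 20, 19 and 0 in controls and 0 and 2, COL3A1, a collagen gene, had 22, 22 and 3 and then 3 and 9, and PDGFRB, a growth factor receptor of pericytes, had 34, 30 and 0 and then 1 and 2. Other members of the pericyte and fibroblast list did not follow GRIN2A, with 26, 33 and 33 counts of CSPG4 in controls and 24 and 20 after co-culture, and 45, 38 and 19 and then 25 and 21 of COL1A1. Over the list of 7 genes no marker was at 0 throughout, and with the entry of RGS5 that has more reads the summed level was 24.7, 26.4 and 18.7 CPM in controls and 14.4 and 17.3 CPM after co-culture. Counting also the second RGS5 entry, which was called higher, the sum was 37.7, 35.7 and 28.2 CPM in controls and 29.5 and 34.4 CPM after co-culture. Without RGS5, which carried most of the sum, the remaining 6 genes summed to 9.25 and 10.0 CPM in controls 1 and 2, and to 2.82, 3.06 and 3.63 CPM in control 3 and the co-cultured libraries. Opposite-strand reads of PDGFRB followed GRIN2A (35 and 15 counts in controls 1 and 2, at most 1 elsewhere), whereas DCN and LUM had at most 1 in any library. Among endothelial markers FLT1 had 30, 28 and 0 counts in controls and 1 and 1 after co-culture, TEK had 31, 24 and 0 and then 6 and 3, and KDR had 37, 27 and 2 and then 12 and 4, whereas VWF, ERG and EGFL7 had reads in every library. The part of these reads in the GRIN2A value was not tested.

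Metabotropic glutamate receptors were mostly represented by GRM4, an inhibitory receptor gene of presynaptic endings, with 44.0, 51.6 and 53.6 CPM in controls and 48.6 and 46.6 CPM after co-culture. The groups overlapped and GRM4 was not called (log2 fold change -0.06, adjusted p = 0.672). GRM5, whose product couples to calcium release, rose from 22, 17 and 12 counts in controls to 46 and 34. Both co-cultured libraries exceeded all controls (0.91 ± 0.28 to 2.38 ± 0.19 CPM, log2 fold change 1.39, SE 0.32, adjusted p = 0.00978). GRM7, a presynaptic inhibitory receptor gene, had 3, 3 and 12 counts in controls and 25 and 18 after co-culture, again without overlap (log2 fold change 1.99, SE 0.54, adjusted p = 0.0203).

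Both rises began from very low levels, and even after co-culture GRM5 and GRM7 made up 6.70 ± 0.47% and 3.79 ± 0.33% of the mRNA of the class per length. GRM7 carried opposite-strand reads (16.7 to 83.3% of its reads) and was called in 8 of 13 alternatives, while GRM5 had at most 5.56% and was called in 13 of 15. Without co-cultured library 1 or 2 the adjusted p was 0.0969 or 0.0568 for GRM5 and 0.153 or 0.0968 for GRM7, and without control 2 it was 0.0556 for GRM7. GRM8 had 1.44, 2.05 and 2.30 CPM in controls and 1.31 and 1.45 CPM after co-culture, so that control 1 lay within the co-cultured range (log2 fold change -0.48, adjusted p = 0.256). GRM2 (0.25) was not called either. For GRM3, which lies outside the name table, a single count in control 3 stood against 39, 28 and 31 counts in controls and 33 and 35 after co-culture on the opposite strand. The antisense gene AC005009.2 shares 401 bases of exon with it there, but had fewer counts itself (11, 3 and 2 in controls, 3 and 6 after co-culture).

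GABA-A receptors are assemblies of several subunits, commonly of the alpha, beta and gamma kinds. In controls GABRA3 supplied 24.9 ± 0.60% and GABRA5 10.6 ± 0.87% of the subunit mRNA per length. GABRA3 had 23.1, 20.7 and 20.8 CPM in controls and 22.6 and 21.7 CPM after co-culture, and GABRA5 had 10.2, 9.23 and 7.94 CPM and then 9.13 and 11.3 CPM. The groups overlapped for both alpha subunit genes, and neither was called (log2 fold changes 0.04 and 0.16). The summed level of the class was 20.6 ± 0.98 CPM per kb in controls and 21.0 ± 0.43 CPM per kb after co-culture, a difference within the spread of the controls.

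GABRG1 and GABRA2 moved in opposite directions. GABRG1, a gamma subunit gene, had 194, 231 and 273 counts in controls and 128 and 82 after co-culture. Its level fell from 12.4 ± 1.87 to 6.21 ± 1.12 CPM without overlap (log2 fold change -0.99, SE 0.19, adjusted p = 0.00374). GABRA2, an alpha subunit gene, had 17, 36 and 54 counts in controls and 75 and 67 after co-culture and rose from 1.89 ± 0.93 to 4.26 ± 0.23 CPM, also without overlap (log2 fold change 1.17, SE 0.36, adjusted p = 0.0354). As a share of the GABA-A class per length, GABRG1 went from 8.88 ± 1.73% to 4.36 ± 0.87%. The ratio of GABRA2 to GABRG1 per length was 0.050, 0.089 and 0.11 in controls and 0.33 and 0.46 after co-culture.

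Both genes lie on the minus strand of chromosome 4, 124.3 kb apart, followed after 443.7 kb by GABRA4 and then GABRB1, which were not tested (at most 6 counts each). The GABRG1 call held in 14 of 15 alternatives and was lost without co-cultured library 2 (adjusted p = 0.0541). The GABRA2 call held in 10 of 15 and was lost without control 2 (adjusted p = 0.0753) or either co-cultured library (0.146 and 0.168), and with control 3 as the lone control its log2 fold change was 0.62 and not called. The upstream sequences of both are shown because neighbours of one cluster responded in opposite directions. They are the RefSeq windows up to the first base that GENCODE counts as an exon of the gene, chr4:46124082-46124304 for GABRG1 and chr4:46390405-46390550 for GABRA2 (GRCh38.p14, minus strand). The GABRG1 stretch borders the GENCODE gene. The GABRA2 stretch, for 1 of 3 start sites listed, lies inside the longer GENCODE gene (chr4:46248427-46475230), so that the 2 stretches are not alike in position. No capitals appear because neither stretch held a match to the motifs searched.
GABRG1: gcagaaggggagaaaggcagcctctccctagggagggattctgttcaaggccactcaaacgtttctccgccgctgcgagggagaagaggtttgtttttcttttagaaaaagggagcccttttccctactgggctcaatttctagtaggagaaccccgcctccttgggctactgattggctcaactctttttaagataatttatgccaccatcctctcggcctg
GABRA2: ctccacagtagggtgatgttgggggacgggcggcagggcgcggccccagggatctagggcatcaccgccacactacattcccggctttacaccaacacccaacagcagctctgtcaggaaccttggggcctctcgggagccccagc
The full window of 250 bases held 51.2% G and C and 6 CpG for GABRG1, and 71.2% and 23 CpG for GABRA2, against a median of 58.0% G and C over all windows. The antisense gene AC095060.1 shares 143 bases of exon with GABRA2 and had no counts in any library. GABRA2 held the core letters of the hypoxia response element (ACGTG, in 18.5% of all windows) in another of its 3 listed windows, as did windows of GRIK2, GRM4 and GRM5.

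GABRQ, the theta subunit gene, rose from 6.38, 6.36 and 5.53 CPM in controls to 9.35 and 8.65 CPM (log2 fold change 0.57, SE 0.16, adjusted p = 0.0215). Opposite-strand counts at GABRQ fell at the same time, from 138, 186 and 170 to 105 and 81, and made up 53.5 to 61.8% of its reads in controls and 38.0 and 38.2% after co-culture. With the opposite strand subtracted GABRQ was called higher (log2 fold change 8.95, adjusted p = 0.000812), but that value follows from a floor. The controls had 120, 115 and 108 counts on the strand of the gene, fewer than on the opposite strand, so that subtraction set every control to 0. With both strands counted together the log2 fold change was 0.02 and no longer called. The call was also lost without control 2 or 3 or either co-cultured library (adjusted p 0.0513 to 0.155). GABRG3 (4.26 and 4.62 CPM after co-culture against 2.77 to 3.58 CPM) and GABRR2, a rho subunit gene, exceeded their controls in both co-cultured libraries but were not called (log2 fold changes 0.54 and 0.79, adjusted p = 0.0782 and 0.194). GABRE had 4, 2 and 2 counts in controls and 9 and 12 after co-culture and was left out by the filter on low counts, and GABRA4, GABRB1, GABRD, GABRP and GABRR1 stayed at 6 counts or fewer.

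On chromosome 15 GABRA5 and GABRG3 lie 22.1 kb apart, and on the X chromosome GABRE, GABRA3 and GABRQ lie within 191.6 and 186.8 kb of each other. Of the 4 of these genes that were tested, GABRQ alone was called.

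GABA-B receptors need both GABBR1, which binds GABA, and GABBR2, which couples to the G protein. GABBR2 had 66, 78 and 92 counts in controls and 46 and 33 after co-culture, and fell from 4.18 ± 0.61 to 2.35 ± 0.24 CPM without overlap (log2 fold change -0.83, SE 0.23, adjusted p = 0.0231). The call was lost in 5 of 15 alternatives, among them the fits without control 2 or 3 or either co-cultured library (adjusted p 0.0702 to 0.151). Reads of GABBR1 fell on its haplotype entry, with 62, 85 and 86 counts in controls and 62 and 49 after co-culture (log2 fold change -0.32, adjusted p = 0.309), while the entry on chromosome 6 had at most 3. With both entries summed, an alternative chosen after seeing the data, the log2 fold change was -0.36 (adjusted p = 0.255). The GABBR1 values are uncertain, since near-identical sequences share reads.

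Glycine receptors combine alpha subunits, which bind glycine, with the beta subunit encoded by GLRB, which anchors the channel at synapses. GLRA3 had the lowest adjusted p of all members. Its counts were 339, 318 and 322 in controls and 714 and 628 after co-culture, and the level rose from 17.4 ± 0.79 to 40.3 ± 1.74 CPM (log2 fold change 1.21, SE 0.097, adjusted p = 6.28e-05). Both co-cultured libraries lay far above the narrow range of the controls, and GLRA3 was called in 15 of 15 alternatives, with log2 fold changes of 1.13 to 1.29. Opposite-strand reads were at most 0.31% of its reads.

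GLRB had 366, 344 and 347 counts in controls and 375 and 274 after co-culture, with overlapping groups (log2 fold change 0.04, SE 0.11, adjusted p = 0.795). Per length, the ratio of GLRA3 to GLRB was 0.33 in each control and 0.69 and 0.83 after co-culture. GLRA3 thereby went from 24.99 ± 0.02% to 43.0 ± 3.21% of the glycine receptor mRNA, and GLRA2, the only other alpha subunit in the name table, had at most 1 count. On its opposite strand GLRA2 had 59 to 83 counts in every library.

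**Figure D3:**
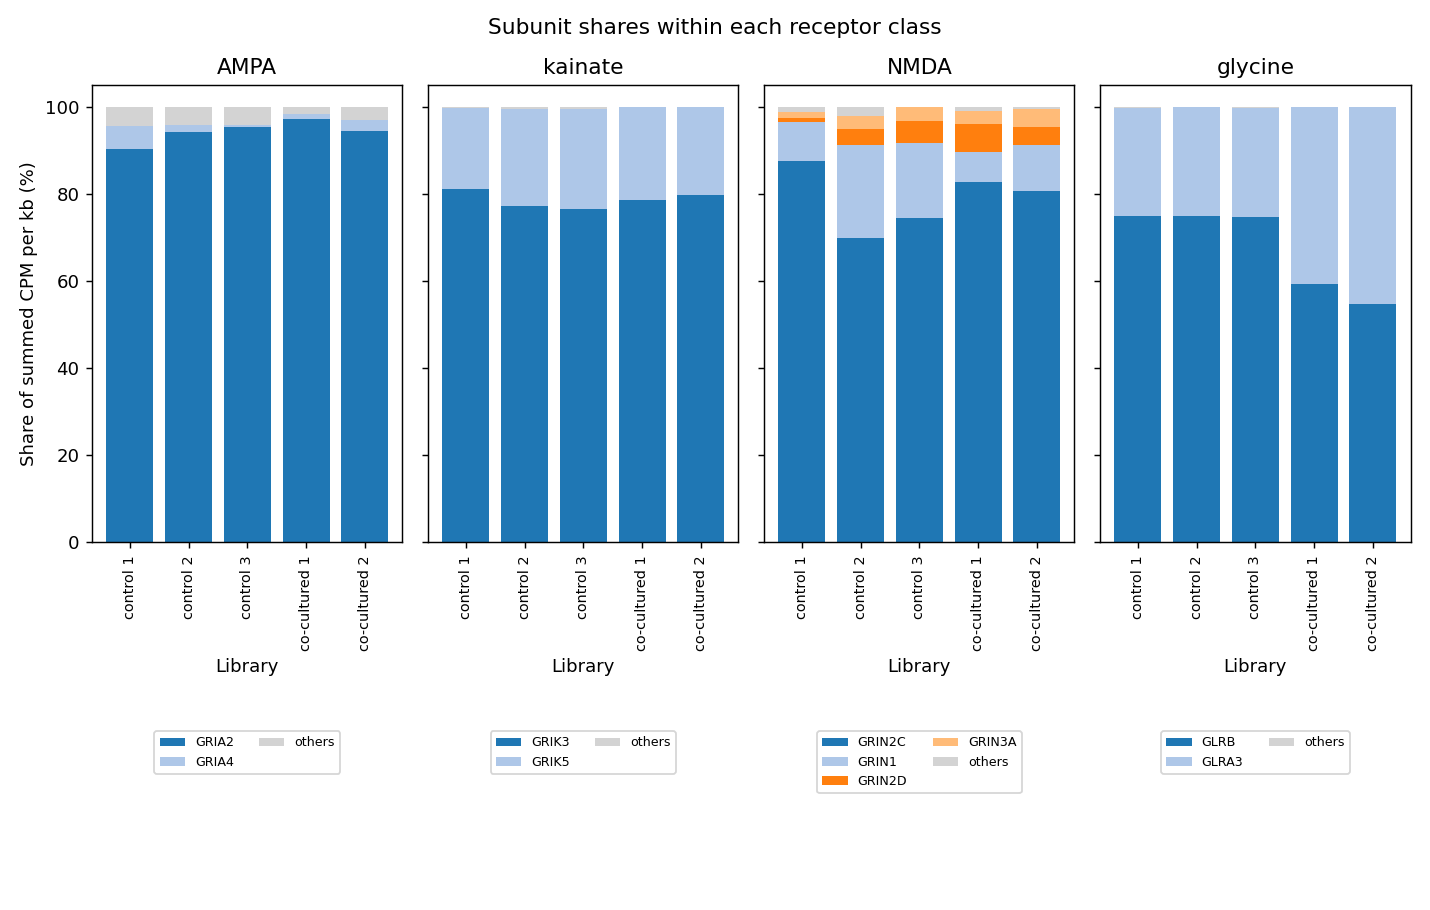
Share (%) of each subunit in the summed CPM per kb of its receptor class, 1 bar per library, for the AMPA, kainate, NMDA and glycine receptors. GLRA3 widened from 24.99% of the glycine class in controls to 43.0% after co-culture, and GRIA2 and GRIK3 dominated their classes in all libraries.

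The stretches upstream of both glycine receptor genes are shown because the alpha subunit gene rose and the beta subunit gene was not called. They are again RefSeq windows of chromosome 4 up to the first exonic base in GENCODE, chr4:174829315-174829497 on the minus strand for GLRA3 and chr4:157075900-157076056 on the plus strand for GLRB (GRCh38.p14), without a match to the motifs searched.
GLRA3: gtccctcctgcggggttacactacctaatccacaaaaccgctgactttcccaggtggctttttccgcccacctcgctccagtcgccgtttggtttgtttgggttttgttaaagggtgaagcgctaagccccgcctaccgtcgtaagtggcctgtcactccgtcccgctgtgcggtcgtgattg
GLRB: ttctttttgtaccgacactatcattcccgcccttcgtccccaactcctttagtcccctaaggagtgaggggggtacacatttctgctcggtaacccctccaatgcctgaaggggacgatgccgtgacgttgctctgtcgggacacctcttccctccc
The full windows held 60.8% and 67.6% G and C. GLRB had the right part of RE1 at 59 to 53 bases before the start, in bases that are exonic in GENCODE and not printed, and this window lacked the left part. GLRB and GRIA2 are neighbours on the plus strand, 32.1 kb apart, and the ratio of GRIA2 to GLRB per length was 0.27, 0.45 and 0.47 in controls and 0.76 and 0.75 after co-culture.

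**Figure D4:**
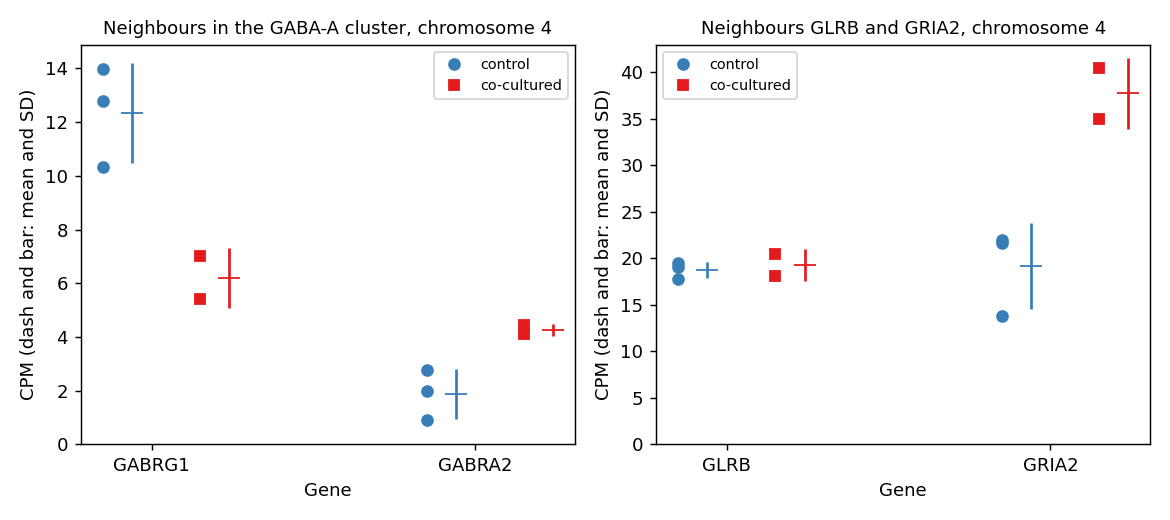
CPM of neighbouring receptor genes on chromosome 4 in each library (points) with mean and SD (dash and bar), 3 control and 2 co-cultured libraries. Both co-cultured libraries lie below all controls for GABRG1 and above them for GABRA2, and GRIA2 was higher while its neighbour GLRB overlapped between the groups.

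By class, the summed mRNA per length was higher after co-culture for AMPA receptors (2.29 ± 0.50 to 4.41 ± 0.36 CPM per kb), kainate receptors (32.7 ± 1.21 to 42.3 ± 2.49) and glycine receptors (7.24 ± 0.34 to 9.77 ± 0.31), without overlap of the libraries. For NMDA receptors it was lower (7.64 ± 0.73 to 6.15 ± 0.39), also without overlap, and for metabotropic receptors (3.93 ± 0.39 to 4.10 ± 0.04) the groups overlapped. These sums were not tested.

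Strand separated some members from the rest. Over all genes tested the median share of opposite-strand reads was 0.781%, and 18 tested members had at most 5.6% in every library. In contrast, 9 members exceeded 25% in at least 1 library (GABRQ, GRIA4, GRIK2, GRIN1, GRIN2A, GRIN2D, GRIN3A, GRM4 and GRM7). GRIA4 stood furthest out, with 828, 870 and 872 opposite-strand counts in controls and 702 and 700 after co-culture beside 3 to 17 on its own strand. No annotated exon lies on the other strand of the GRIA4 exons, and MSANTD4, the nearest expressed gene on that strand, lies 13.5 kb away. Without these 9 members, 6 genes were called higher and 2 lower among 22, beside 18.4% and 15.0% of all genes tested.

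**Figure D5:**
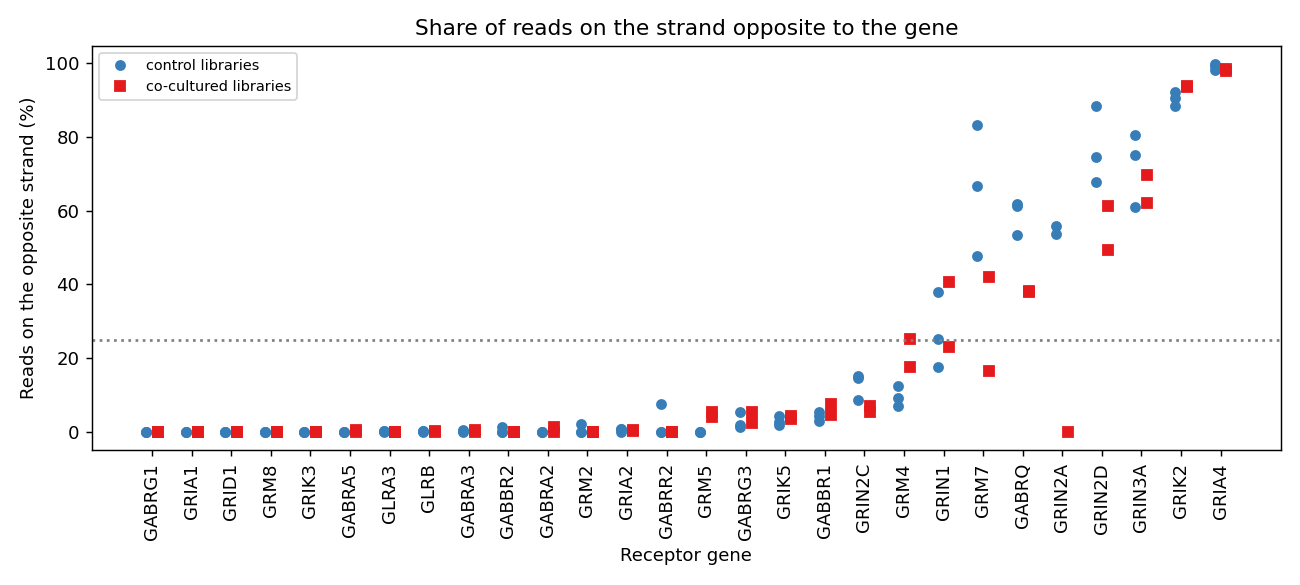
Share (%) of reads over 28 tested receptor genes that lie on the opposite strand, in 3 control (blue circles) and 2 co-cultured (red squares) libraries, with a dotted line at 25%. GLRA3, GRIA2, GRIK3 and GABRG1 lie near 0, and GRIA4 and GRIK2 lie above 88% in all libraries.

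Genes that supply, clear, anchor or modulate these receptors were examined as a list of 81 partner genes, of which 55 were tested. In all, 21 rose and 6 fell (38.2% and 10.9%, beside the 18.4% and 15.0% of all genes given above), with a median log2 fold change of 0.21. Among transporters of glutamate, GABA, glycine and related compounds, 10 of 12 tested rose and none fell. SLC7A11, the cystine and glutamate exchanger, had 132, 82.8 and 76.1 CPM in controls and 208 and 251 CPM after co-culture (log2 fold change 1.24, SE 0.20, adjusted p = 0.0019). SLC6A8, a creatine transporter of the same family as the GABA transporters, rose from 7.16 ± 0.82 to 23.2 ± 7.73 CPM (log2 fold change 1.70, adjusted p = 0.000383). Many of these transporters also move amino acids in cells without synapses, and SLC32A1, the vesicular GABA and glycine transporter, had no counts in any library.

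Enzymes of transmitter synthesis and breakdown went both ways, with 5 of 11 tested rising and 2 falling (45.5% and 18.2%, against 18.4% and 15.0% of all genes). SHMT2, a mitochondrial enzyme that makes glycine from serine, rose from 151 ± 5.14 to 362 ± 8.11 CPM (log2 fold change 1.26, adjusted p = 2.19e-05). ALDH5A1, an enzyme of GABA breakdown, fell from 30.2 ± 1.64 to 15.1 ± 0.83 CPM (log2 fold change -1.01, adjusted p = 0.000236). Of 13 auxiliary subunits tested, 5 rose (38.5%, against 18.4% of all genes) and none fell. Those that rose included CACNG8, an AMPA receptor auxiliary subunit (0.46 ± 0.09 to 1.10 ± 0.15 CPM, log2 fold change 1.24, adjusted p = 0.0353), and NETO1, a kainate receptor auxiliary subunit (1.32 ± 0.64 to 2.94 ± 0.14 CPM, log2 fold change 1.14, adjusted p = 0.0423). Of 19 postsynaptic scaffold genes tested, 1 rose and 4 fell (21.1%, against 15.0% of all genes), and no test compared the partner groups. The one that rose was HOMER1, a scaffold of metabotropic receptors such as that of GRM5, with 7.44, 6.03 and 5.07 CPM in controls and 15.5 and 17.4 CPM after co-culture (log2 fold change 1.41, SE 0.17, adjusted p = 0.000434).

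Some neuronal and glial markers differed between the groups as well. Of the 10 neuronal markers 7 were tested, with 2 higher (MAP2 and SYN1) and 1 lower (DCX, log2 fold change -1.43). Over all genes tested 18.4% were higher and 15.0% lower. The 10 neuronal markers summed to 508 to 539 CPM in controls and to 901 and 875 CPM after co-culture. MAP2 carried this rise (310 ± 14.9 to 680 ± 16.0 CPM), and without it, a sum added after its values were seen, the other 9 genes came to 214, 213 and 218 CPM in controls and 210.3 and 207 CPM after co-culture. Of the 7 astrocyte markers only AQP4, the water channel, was tested, and it was higher, while 2 were at or below 3 counts in every library and GFAP had 79 counts in control 3 and at most 3 elsewhere. The list summed to 10.0 to 18.4 CPM in controls and to 33.6 and 32.8 CPM after co-culture. AQP4 carried this rise, with 9.41, 12.3 and 13.6 CPM in controls and 32.7 and 31.9 CPM after co-culture. Among endothelial markers ESAM was higher (3, 4 and 6 counts in controls, 21 and 14 after co-culture), 6 of 18 did not exceed 3 counts in any library, and the list as a whole lay within the range of the controls in both co-cultured libraries. The part of these markers in the receptor values was not tested.

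In all, 13 entries were left out of the test by the filter on low counts, with a highest count of 12 (GABRE), and 6 of them did not exceed 3 counts in any library. Among them are GRIA3, GRIK4, GRIN2B, GRIN3B, GABRA4, GABRB1, GABRD, GABRE, GABRP, GABRR1, GLRA2 and the chromosome 6 entry of GABBR1. GRIN3B, with 0 to 4 counts on its own strand, had 71 to 123 on the other, where TMEM259 shares 85 bases of exon with it and had 1525 to 2024 counts. When every gene with a count was tested, GABRE was called higher (log2 fold change 2.11, adjusted p = 0.0141) and no other gene of this group was called.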

How the data were processed

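RNA was measured in 5 RNA-seq libraries of NCI-H209. The authors aligned the reads and deposited raw counts per gene and strand; per the submitters' processing notes, CASAVA 1.8, STAR 2.6.1b, DESeq2 and GRCh38 were used. The 64837 entries hold all 58780 genes of GENCODE release 29. Between 92.3 and 93.1% of gene reads lay on 1 strand, whose counts were used here. A deposited table of the authors' own comparison (means, log2 fold changes, standard errors, p-values) served only to pair identifiers with names.

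The 3 control and 2 co-cultured libraries, grouped by their titles, were compared with edgeR 4.0.16 (R 4.3.3; TMM scaling, edgeR's default filter on low counts, quasi-likelihood test, Benjamini-Hochberg adjustment over 20360 genes). With 3 against 2 libraries an exact permutation test of a single gene cannot go below p = 0.1 (one-sided), so none is given. The biological coefficient of variation was 10.2%. Replicates differed by more than sampling noise (chi-square per degree of freedom 4.60 to 18.2). Figures were drawn with matplotlib 3.10.9.

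Members and lists were chosen with earlier results of these data known. Called members are given with every library's value, other tested members with their fold change or range, untested members with their highest count, and partner genes where the criterion modelled on the study's was met. Some members are not reported here by name, though counts and class sums include them. Alternatives were DESeq2 1.42.0, other scalings and filters, other strand columns, a replicate block, leaving out each library, control 3 as the lone control, and summed entries of 1 symbol (added after seeing the data). Upstream sequences are from RefSeq (GRCh38.p14).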

Additional observations from a re-analysis of the deposited data

Results flagged for a closer look

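The reads on the opposite strand are outside the main measurement. At 2 receptor genes (GRM4 and GRIK5) with more than 3 such reads in each co-cultured library, they lay above all controls in both. At GABRQ, GRIK2, GRIN1, GRIN2C and GRIN2D they lay below all controls in both. For GRIN2C they had 5.955, 7.575 and 8.09 CPM in controls and 2.569 and 3.105 CPM after co-culture. The share of all genes with such shifts was not computed. At GRM4 they had 4.41, 3.87 and 7.73 CPM in controls (5.34 ± 2.09) and 16.5 and 9.97 CPM after co-culture (13.24 ± 4.62), while GRM4 itself was not called on its own strand (log2 fold change -0.06). With the opposite strand subtracted GRM4 was called lower (log2 fold change -0.38, adjusted p = 0.0366). At GRIK5 they had 1.44, 0.94 and 0.77 CPM in controls (1.05 ± 0.35) and 1.53 and 2.05 CPM after co-culture (1.789 ± 0.37). The gene ZNF574 overlaps the span of GRIK5 on that strand, but no annotated exons of that strand overlap the GRIK5 exons. None of these differences between the groups on the opposite strand was tested.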

How the results depend on the processing

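Of 187 recomputed fold changes of named receptor genes, 139 kept their direction and their side of the threshold, 44 kept the direction but lost the call, 4 gained a call and none reversed. GLRA3 was called in every alternative, GABRG1 and GRIA2 in all but one.

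The number of receptor genes called higher (8) was 5 with the replicate block and 5 with the opposite strand subtracted, and ranged from 2 (without co-cultured library 1) to 10 (without control 1) when a library was left out. The number called lower (4) was 2 without the members with over 25% of reads on the opposite strand and 0 (without co-cultured library 2) to 5 (without control 1) with a library left out. Genes lower by a log2 fold change below -1 and p below 0.05 (3) came to 1 with at least 10 counts in every library, 1 without regard to strand and 1 with the opposite strand subtracted, and to 1 to 4 with a library left out. The median log2 fold change (0.162) was 0.084 under upper-quartile scaling, 0.083 when any gene with 1 count was tested, 0.271 with the replicate block and 0.075 to 0.302 with a library left out. Partner genes called higher (21) ranged from 11 to 26 and called lower (6) from 2 to 9 with a library left out, and all genes called (6809) from 2734 without co-cultured library 1 to 9897 without control 1. Where a fit without a co-cultured library leaves 1, that library is assumed to vary like the controls. The cause of these shifts was not tested.

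The groups share the replicate numbers 1 and 2, but same-numbered libraries did not deviate together (r = -0.146 and -0.082 across genes), so the numbers are not taken to pair the libraries. Under the replicate block the calls of GRIK3, GRIK5, GABRQ, GABBR2 and GRIK2 were lost, and GRIN2A and GRID1 were called lower. Replicate number 3 occurs only among the controls, so control 3 does not enter the difference between the groups in this fit. The block is therefore close to the fit without control 3, with log2 fold changes of GRIN2A of -5.39 and -5.36. Of the members not called, GABRE, GRIN2A, GRID1, GRIA4, GABRG3 and GRM4 were each called in at least 1 alternative. At the present depth a level below 0.157 to 0.194 CPM could not be told from 0.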
